A study of Mus musculus with 12 samples.

Results

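The 36 interferon-induced genes described here are a list of names, genes known to be switched on in cells that receive an interferon signal. The rule that finds them reads no value of these libraries, but the list was drawn up with earlier results of the same data known. They lie on 15 chromosomes. All 36 were found among the 23944 genes whose values could be read, and all 36 were among the 16275 tested, those whose mean over the libraries reached 0.5 FPKM. FPKM, a count of fragments scaled by transcript length and by the size of the library, is a level per length of RNA. RNA of whole cochleae, the hearing part of the inner ear, was sequenced from 12 mice of a mixed 129S2/SvPas:C57BL/6 background. The 4 groups of 3 were wild type (WT) mice at 5 months (E1, E3 and E4), Dusp1-/- knockout (KO) mice at 5 months (E7, F18 and F19), WT mice at 8 months (F1, F10 and F12) and KO mice at 8 months (F5, F6 and F27). Ages are those of the sample labels; the study's text gives them in weeks and somewhat younger. Letters and numbers are animal codes, no group was treated, and values of 3 libraries below are always given in this order. The knockout is constitutive, and the sources used here do not say whether the WT mice were littermates. The comparison asks how the cochlear transcriptome differs without DUSP1, a phosphatase that switches off the stress kinases p38 and JNK.

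Interferons are secreted proteins that warn cells of infection. Type I interferons act through the receptor IFNAR and the kinases JAK1 and TYK2, which lead to the assembly of a complex with STAT2 and IRF9 that binds the interferon-stimulated response element (ISRE) in front of its target genes. Type II interferon acts through another receptor, IFNGR, and a different element called GAS. The target genes encode sensors of foreign RNA and DNA, proteins that block viral replication, GTPases that attack vacuoles of intracellular microbes, and the parts that cut and carry peptides to MHC class I. Most cell types can express them, resident macrophages of the cochlea included.

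Many interferon-induced genes are known for an ISRE close to their start. The ISRE core was searched as 2 copies of GAAA with any 2 bases between them, or of TTTC where it lies on the other strand, in the 250 bases before each annotated start. It was found before 18 of 36 genes (50%), against 503 of all 16275 tested genes (3.09%). The GAS core, TTC and GAA with any 3 bases between them, reads the same on both strands and may share bases with an ISRE core, and was found before 10 of 36 (27.8%), against 6.63% of all tested genes. Shown are 11 of the genes, all but Xaf1 with a match, with the 140 bases before their start. The sequence is that of genome build NCBIM37 (mm9), 5′ to 3′ on the strand of the gene. Genes with a match are thus over-represented among those shown. Stat2, Irf9, Irf7, Ifitm3, Mx1, Mx2 and Oasl1, which the results below also treat, were among the 18 genes without an ISRE core in the 250 bases and are not shown. Capitals mark matches to the ISRE core, and overlapping matches run together. The windows are at chr4:155574928-155575067, minus strand (Isg15), chr6:121195784-121195923, plus strand (Usp18), chr19:34715239-34715378, plus strand (Ifit1), chr19:34657879-34658018, plus strand (Ifit3), chr12:27141318-27141457, minus strand (Rsad2), chr2:173044424-173044563, minus strand (Zbp1), chr5:121357535-121357674, minus strand (Oas1a), chr5:121199858-121199997, minus strand (Oas2), chr3:142283487-142283626, plus strand (Gbp2), chr11:58012918-58013057, plus strand (Igtp) and chr11:72114991-72115130, plus strand (Xaf1). No annotated exon overlapped any of them.
Isg15: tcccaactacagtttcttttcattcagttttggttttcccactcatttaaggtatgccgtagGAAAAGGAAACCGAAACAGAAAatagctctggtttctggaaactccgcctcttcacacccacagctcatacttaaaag
Usp18: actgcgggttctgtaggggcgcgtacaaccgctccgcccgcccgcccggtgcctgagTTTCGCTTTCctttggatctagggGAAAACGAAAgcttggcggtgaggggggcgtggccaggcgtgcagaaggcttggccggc
Ifit1: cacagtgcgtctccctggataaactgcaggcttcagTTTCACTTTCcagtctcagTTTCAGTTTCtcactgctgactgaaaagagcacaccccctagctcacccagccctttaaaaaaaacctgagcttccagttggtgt
Ifit3: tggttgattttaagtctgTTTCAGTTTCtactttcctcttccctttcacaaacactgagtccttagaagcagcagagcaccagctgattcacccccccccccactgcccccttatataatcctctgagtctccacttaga
Rsad2: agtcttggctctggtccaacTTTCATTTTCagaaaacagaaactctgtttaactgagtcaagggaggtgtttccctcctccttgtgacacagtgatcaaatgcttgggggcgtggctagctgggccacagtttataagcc
Zbp1: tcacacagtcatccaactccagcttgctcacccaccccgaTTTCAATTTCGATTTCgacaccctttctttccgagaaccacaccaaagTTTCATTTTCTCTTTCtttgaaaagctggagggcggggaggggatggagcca
Oas1a: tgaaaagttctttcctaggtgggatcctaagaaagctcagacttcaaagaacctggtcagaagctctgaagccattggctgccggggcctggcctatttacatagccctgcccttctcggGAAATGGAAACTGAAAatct
Oas2: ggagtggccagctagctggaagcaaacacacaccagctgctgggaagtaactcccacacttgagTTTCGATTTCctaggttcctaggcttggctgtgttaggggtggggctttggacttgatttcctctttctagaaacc
Gbp2: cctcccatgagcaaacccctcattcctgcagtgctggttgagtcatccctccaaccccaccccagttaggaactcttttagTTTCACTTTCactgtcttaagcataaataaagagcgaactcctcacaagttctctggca
Igtp: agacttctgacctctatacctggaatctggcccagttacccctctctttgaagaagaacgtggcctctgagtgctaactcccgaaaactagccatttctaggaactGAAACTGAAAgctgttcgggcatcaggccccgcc
Xaf1: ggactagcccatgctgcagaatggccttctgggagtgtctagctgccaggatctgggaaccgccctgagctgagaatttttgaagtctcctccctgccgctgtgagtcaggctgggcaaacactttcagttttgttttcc
Isg15 had 3 overlapping matches in this window and Zbp1 had 4, whereas Xaf1, the gene with the largest difference at 5 months, had none. A match is a run of letters and not a shown binding site, and no match says only that these letters are not in the window. The 18 genes with a match had a median log2 difference between KO and WT, averaged over both ages, of 0.57 (0.24 to 0.85), and the 18 without one had 0.43 (0.11 to 0.98). The ranges overlapped.

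**Figure D1:**
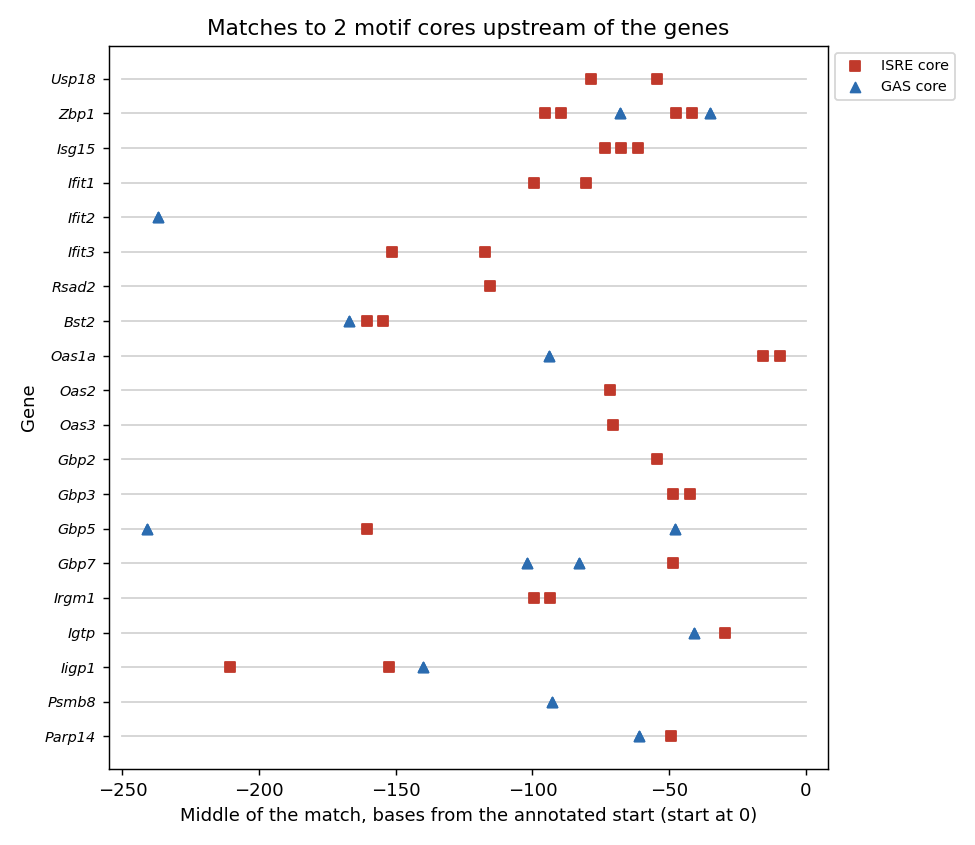
Position of each match to the ISRE core (squares) and the GAS core (triangles) before the start of the genes that have at least 1 match (x axis, bases from the annotated start; y axis, genes ordered by role). Oas1a has its ISRE core closest to the start, Ifit2 and Psmb8 have a GAS core only, and the other 16 genes without any match are not drawn.

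Some facts of the libraries touch every result. Dusp1 itself was listed at 29.5 to 60.8 FPKM in the 6 libraries labelled WT and at 55.6 to 81.5 FPKM in the 6 labelled KO, so its RNA does not mark the knockout, and every direction below rests on the labels. Whether the deposited reads come from the deleted part of the gene was not tested. Cochlear markers were present in every library, with Coch, which encodes a protein of the cochlear matrix, at 1888 to 2983 FPKM and the hair cell myosin gene Myo7a at 3.07 to 7.06 FPKM. The marrow markers differed widely. The 26 neutrophil markers in the table summed to 98.8 to 722 FPKM in WT and 4329 to 23417 FPKM in KO at 5 months, and to 737 to 4786 FPKM in WT and 960 to 17221 FPKM in KO at 8 months, with E7 and F5 highest. Xist RNA, found in females, was present in E4, F1, F6 and F27 and the Y-linked Ddx3y in the other 8, so the KO group at 5 months held males only. In whole tissue, a change in the number of cells that express a gene and a change in RNA per cell cannot be told apart.

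Taken as a list, the 36 genes lay higher in KO than in WT at either age, and no single gene passed the test across all genes. At 5 months 35 of 36 had a log2 difference above 0 (44.3% of all tested genes did), with a median of 0.37 against -0.027 for all tested genes. At 8 months 36 of 36 did (48.3% of all), with a median of 0.51 against -0.0040. Averaged over both ages the median was 0.46 against -0.016. limma, with Benjamini-Hochberg adjustment over all 16275 genes, called 0 of 36 at 5 months (0.0676% of all genes were called), 0 of 36 at 8 months (0.0123%) and 0 of 36 in the averaged contrast (0.0799%). An unadjusted limma p under 0.05 with a higher level in KO was reached by 12 of 36 at 5 months (8.23% of all), 22 of 36 at 8 months (2.21%) and 29 of 36 in the average (7.74%), and with a lower level by 0 of 36 each time (9.92, 2.97 and 9.65% of all). Single libraries moved these counts. At 5 months the 12 genes became 2 without E3 or without E7, 7 without E1 or without F19 and 21 without F18. The median became 0.23 without E3. Of all tested genes, 1339 at 5 months became 906, 638, 913, 1362 and 1613 in the same order. Without E3 the share of the 36 was thus near that of all tested genes. At 8 months the 22 became 6 without F1 or without F6, 9 without F27 and 14 without F10. Of all tested genes, 359 became 259, 215, 427 and 387 in that order. Without E7 and F5 together the counts were 3 and 22 of 36, and 1047 and 503 of all tested genes. The smallest adjusted p of any of the 36 in limma was 0.118 at 5 months, 0.681 at 8 months and 0.112 in the average. All WT libraries of 5 months were coded E, and of the KO libraries of that age only E7 was. With this letter, of unstated meaning, as a covariate, the median at 5 months was 0.43. An unadjusted limma p under 0.05 was then reached by 8 of 36 higher in KO at 5 months (1677 of all tested genes). The letter and the genotype can hardly be told apart at that age.

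All 3 KO values lay above all 3 WT values for 10 of 36 genes at 5 months (11.3% of all tested genes) and for 16 of 36 at 8 months (4.1%), and in no gene did they all lie below (13.8 and 6.18% of all). The count at 8 months stood farther from its background than the count at 5 months. The genes without overlap at 5 months were Irf9, Rsad2, Bst2, Oas3, Oasl1, Gbp5, Psmb8, Psmb9, Tap1 and Xaf1. At 8 months they were Stat2, Irf9, Irf7, Ddx58, Ifih1, Dhx58, Zbp1, Isg15, Ifitm3, Oas1a, Oasl1, Oasl2, Gbp2, Gbp3, Igtp and Ifi44. Irf9 and Oasl1 stood in both lists (0.805% of all tested genes). With 1 library fewer a separation is easier for every gene, so the count can only stay or rise. At 5 months it was 21 without E4 (16.4% of all tested genes) and 23 without F18. At 8 months it was 30 without F12 and 26 without F5. The share of all tested genes was computed without E4 only, so the other counts have no background and are not read further. An exact permutation test of 3 against 3 libraries cannot give a p below 0.1.

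**Figure D2:**
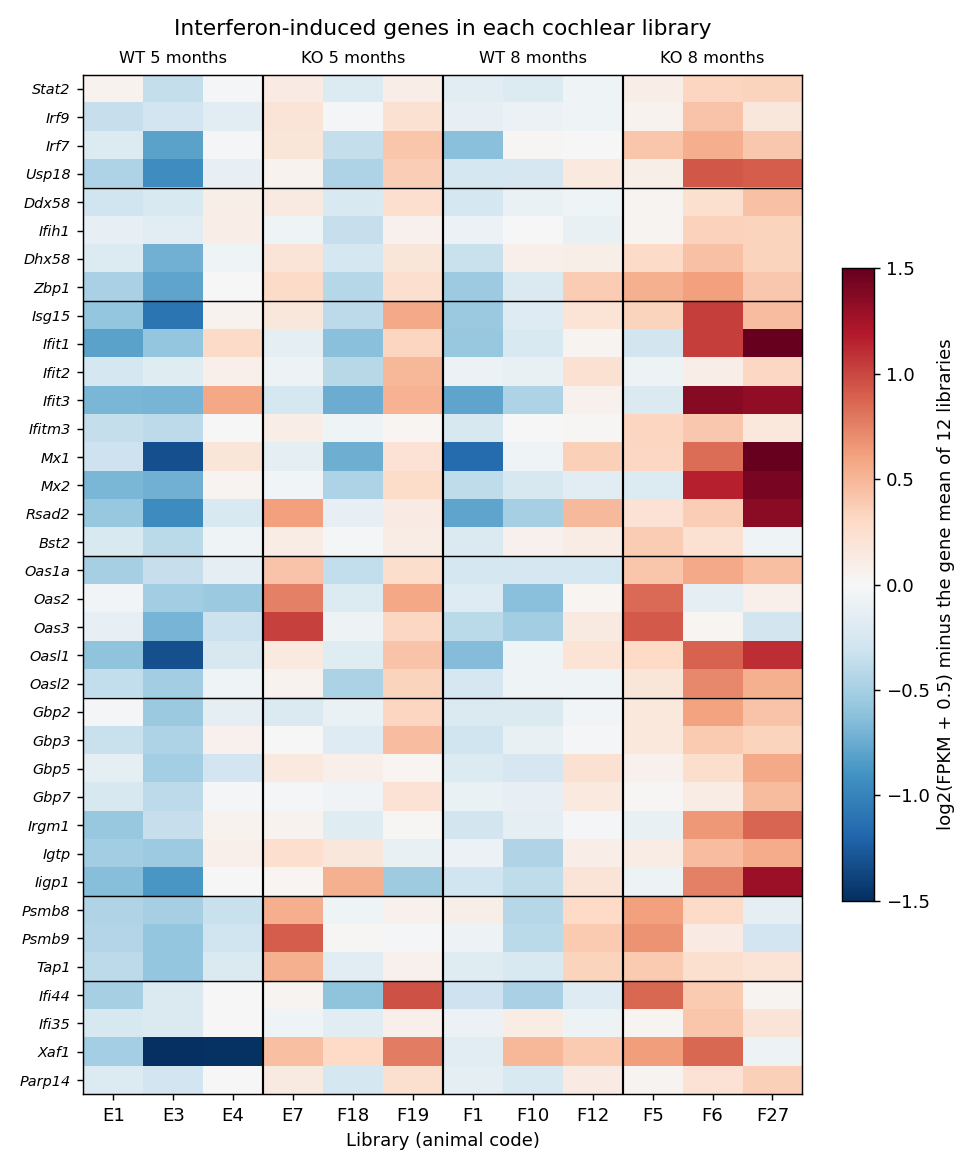
Level of each of the 36 genes (rows, grouped by role) in each of the 12 libraries (columns, 4 groups of 3), as log2(FPKM + 0.5) minus the mean of the gene over the 12 libraries, with the darkest shades also standing for larger differences. E3 is the bluest column, lowest of the 12 in 25 genes, and F6 and F27 are the reddest, highest in 14 and 13 genes.

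The libraries within a group differed as a block. Among WT mice at 5 months E3 was lowest in 27 of 36 genes and E4 highest in 30, and among KO mice of that age F18 was lowest in 31. At 8 months F12 was the highest WT library in 31 genes and F5 the lowest KO library in 25. Summed over the 36 genes, the FPKM were 625, 578 and 802 in WT and 898, 742 and 914 in KO at 5 months, and 677, 773 and 852 in WT and 981, 1171 and 1072 in KO at 8 months. E4 thus exceeded F18 at 5 months, while at 8 months the sums of the groups did not overlap.

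The regulators form the loop that passes on and restrains the signal. All 4 of them were higher in KO with an unadjusted limma p under 0.05 at 8 months (2.21% of all tested genes) and in the averaged contrast (7.74%), and 1 of 4, Irf9, at 5 months (8.23%). Irf9, at chr14:56222822-56228867 and the DNA-binding part of its complex with STAT2, was at 15.9, 16.5 and 18.1 FPKM in WT and 23.2, 19.96 and 23.9 FPKM in KO at 5 months, and at 18.6, 19.03 and 19.3 FPKM in WT and 21.1, 27.4 and 22.9 FPKM in KO at 8 months. Every one of the 6 KO libraries lay above every one of the 6 WT libraries, which held for 1 of the 36 genes and for 0.289% of all tested genes. Its log2 difference was 0.40 ± 0.10 (SE) at 5 months and 0.31 ± 0.10 at 8 months, and the average was 0.35 ± 0.07 (limma adjusted p = 0.112).

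Irf7, the factor that amplifies interferon-α production, was at 13.6, 8.91 and 15.7 FPKM in WT and 18.1, 12.3 and 21.4 FPKM in KO at 5 months, and at 10.1, 16.1 and 15.99 FPKM in WT against 21.3, 23.4 and 21.2 FPKM in KO at 8 months. F18 fell below E1 and E4 at the younger age, and the 3 KO libraries stood together above WT at the older age. Stat2, the partner of IRF9, was at 14.7, 10.9 and 13.8 FPKM in WT against 15.4, 12.2 and 15.2 FPKM in KO at 5 months and at 12.4, 12.2 and 13.5 FPKM in WT against 15.2, 17.8 and 17.9 FPKM in KO at 8 months. Its groups mixed at 5 months (log2 difference 0.12 ± 0.12) and separated at 8 months (0.40 ± 0.12, limma adjusted p = 0.914). Usp18, which removes ISG15 from proteins and blocks the type I receptor, was at 6.93, 4.89 and 8.93 FPKM in WT and 10.2, 6.93 and 12.8 FPKM in KO at 5 months, and at 8.06, 8.13 and 10.9 FPKM in WT against 10.4, 19.1 and 18.7 FPKM in KO at 8 months. F6 and F27 were well above all other libraries, and F5 lay below F12.

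The sensors recognise foreign nucleic acid. None of the 4 was higher in KO at an unadjusted p under 0.05 at 5 months (8.23% of all tested genes) and 3 were at 8 months (2.21%). Ddx58, which encodes the RNA sensor RIG-I, was at 9.29, 9.78 and 12.2 FPKM in WT against 12.7, 9.77 and 13.8 FPKM in KO at 5 months, and at 9.49, 10.7 and 10.99 FPKM in WT against 11.8, 13.7 and 15.8 FPKM in KO at 8 months. Dhx58, whose product LGP2 tunes RIG-I and MDA5, was at 4.40, 2.92 and 4.89 FPKM in WT against 5.93, 4.18 and 5.90 FPKM in KO at 5 months and at 3.98, 5.44 and 5.46 FPKM in WT against 6.36, 7.11 and 6.59 FPKM in KO at 8 months. Zbp1, a sensor of Z-form nucleic acid that can start necroptosis, was at 2.30, 1.75 and 3.40 FPKM in WT against 4.25, 2.41 and 4.15 FPKM in KO at 5 months and at 2.18, 2.86 and 4.58 FPKM in WT against 5.16, 5.48 and 4.65 FPKM in KO at 8 months. For all of these genes the groups overlapped at 5 months, with F18 beside the WT libraries, and were apart at 8 months, by log2 0.38 ± 0.15, 0.41 ± 0.19 and 0.64 ± 0.28. Ifih1, which encodes the RNA sensor MDA5, was the only one of the 36 genes with a difference below 0 at 5 months (-0.05 ± 0.12), and at 8 months it differed by 0.30 ± 0.12.

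The antiviral effectors gave the largest differences at 8 months, with a median log2 difference of 0.91 over the 9 genes, against 0.27 at 5 months. Isg15, a ubiquitin-like protein that is attached to newly made proteins, was at 18.2, 12.5 and 28.4 FPKM in WT and 30.9, 20.7 and 40.7 FPKM in KO at 5 months. At 8 months it was at 18.5, 23.8 and 31.6 FPKM in WT and 34.6, 56.6 and 37.9 FPKM in KO. F18 lay below E4 at 5 months and the groups separated at 8 months, with a log2 difference of 0.65 ± 0.34 and 0.79 ± 0.34 and an average of 0.72 ± 0.24 (limma adjusted p = 0.216). Rsad2, which encodes viperin, was at 3.22, 2.36 and 4.19 FPKM in WT against 7.94, 4.54 and 5.48 FPKM in KO at 5 months and at 2.68, 3.41 and 7.20 FPKM in WT against 5.91, 6.61 and 13.5 FPKM in KO at 8 months. Its groups separated at 5 months and overlapped at 8 months, where F12 exceeded F5 and F6. Ifitm3, a membrane protein that stops viral entry and the most abundant of the 36 genes, was at 271, 263 and 347 FPKM in WT against 372, 332 and 355 FPKM in KO at 5 months, and at 293, 349 and 350 FPKM in WT against 433, 460 and 387 FPKM in KO at 8 months. Its difference was smaller and steadier, at 0.27 ± 0.12 and 0.37 ± 0.12.

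A block of effectors was high in F6 and F27 and not in F5 (singled out after their values were seen). Ifit3, which with Ifit1 binds viral RNA lacking the cap methylation of the host, was at 14.8, 18.8 and 27.1 FPKM in WT and 22.4, 67.7 and 66.3 FPKM in KO at 8 months. Ifit1 was at 15.3, 19.5 and 23.5 FPKM in WT against 18.8, 47.4 and 67.4 FPKM in KO, the GTPase Mx1 at 1.10, 2.91 and 4.07 FPKM in WT against 3.92, 5.89 and 11.96 FPKM in KO and its paralog Mx2 at 3.26, 3.64 and 3.84 FPKM in WT against 3.75, 10.4 and 12.6 FPKM in KO. The log2 differences of these 4 genes at 8 months were 1.23, 1.02, 1.27 and 1.06, the largest of the 36 genes at that age, with standard errors of 0.39 to 0.52. F5 did not stand above the WT libraries in any of them, so 2 of 3 KO libraries carried each value. At 5 months the same genes differed by 0.11 to 0.38 with similar errors. Ifit2, a neighbour of both Ifit genes on chromosome 19, differed by 0.10 ± 0.21 at 8 months, and Bst2, which tethers budding virus to the cell, by 0.30 ± 0.13 at 5 months and 0.20 ± 0.13 at 8 months.

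F6 and F27, a pair chosen after the values were seen, were the highest of the 12 libraries for 17 of the 36 genes, against 4.55% of all tested genes. These were Stat2, Usp18, Ifih1, Dhx58, Ifit1, Ifit3, Mx1, Mx2, Oas1a, Oasl1, Oasl2, Gbp2, Gbp5, Irgm1, Igtp, Iigp1 and Ifi35. Both libraries had Xist RNA and low neutrophil markers (960 and 1323 FPKM summed), and the WT library of 8 months with Xist RNA, F1, was the lowest WT library of that age in 21 of the 36 genes. Within the libraries with Xist RNA at 8 months, F6 and F27 lay above F1 for 34 of 36 genes (33.5% of all tested genes), with a median log2 difference of 0.61. Among those without it, F5 lay above both F10 and F12 for 23 of 36 (33.9%), with a median of 0.22. At 5 months the libraries without Xist RNA gave all 3 KO values above both E1 and E3 for 21 of 36 genes (16.4%) and a median of 0.53. With the Xist level as a covariate the medians were 0.42 at 5 months and 0.46 at 8 months. At an unadjusted limma p under 0.05, 9 genes in place of 12 were then higher in KO at 5 months (1004 in place of 1339 of all tested genes). At 8 months 12 in place of 22 were (303 in place of 359 of all tested genes).

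**Figure D3:**
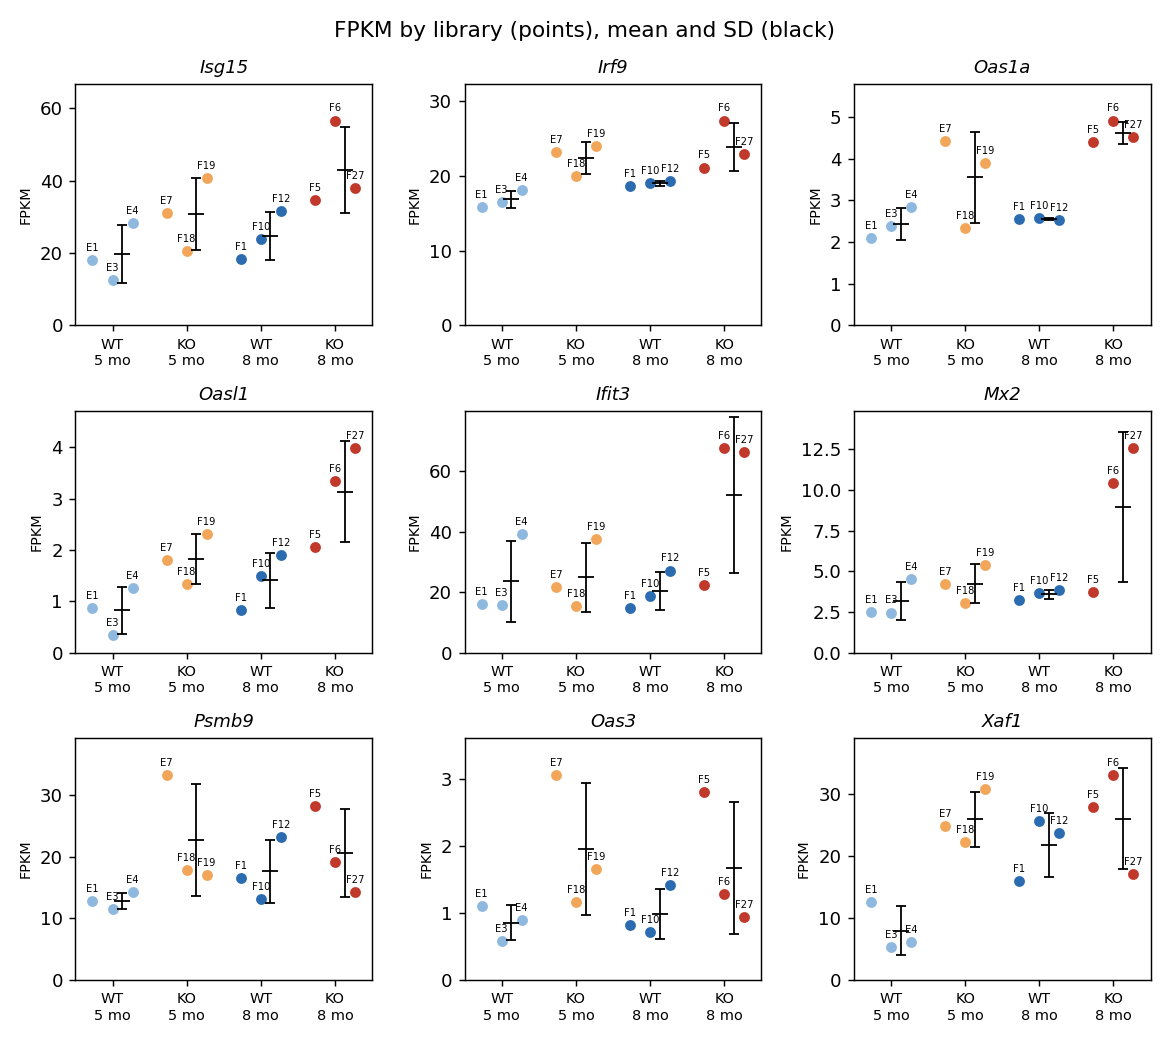
FPKM of 9 of the genes in each library (points with animal codes; y axis from 0; x axis, the 4 groups), with the mean and SD of 3 libraries beside them in black. Irf9 and Oasl1 separate KO from WT at both ages, Ifit3 and Mx2 are high in F6 and F27, Psmb9 and Oas3 in E7 and F5, and Xaf1 is lowest in the WT libraries of 5 months.

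The 2′-5′ oligoadenylate synthetases make the messenger that activates RNase L. Of the 5 among the 36, 4 were higher in KO with an unadjusted limma p under 0.05 at 5 months (8.23% of all tested genes). At 8 months 3 were (2.21%) and in the average all 5 (7.74%), where their median log2 difference was 0.64. Outside the 36, Oas1b and Oas1g differed on average by 0.48 ± 0.17 and 0.54 ± 0.17, and Oas1c by -0.03 ± 0.11. None of these relatives reached such a p at 5 months. Oas1a was at 2.09, 2.37 and 2.85 FPKM in WT and 4.42, 2.33 and 3.90 FPKM in KO at 5 months. At 8 months it was at 2.55, 2.57 and 2.54 FPKM in WT and 4.40, 4.91 and 4.52 FPKM in KO, tight within both groups and apart by log2 0.74 ± 0.18 (limma adjusted p = 0.681). F18 was the KO library at the WT level, and without it the averaged difference of Oas1a, 0.71 in place of 0.59, was the only one of the 36 to pass limma's test. Oas1a has several close copies on chromosome 5 whose reads can be shared between them, so its level is uncertain to that extent.

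Oasl1, at chr5:115373249-115387920 and a relative without synthetase activity, was at 0.868, 0.334 and 1.26 FPKM in WT against 1.81, 1.34 and 2.31 FPKM in KO at 5 months and at 0.834, 1.49 and 1.90 FPKM in WT against 2.07, 3.34 and 3.99 FPKM in KO at 8 months. Its groups separated at both ages, by 0.86 ± 0.33 and 0.93 ± 0.33, or 2.22-fold and 2.23-fold in mean FPKM. Oasl2 was at 14.3, 12.7 and 17.7 FPKM in WT against 19.2, 13.2 and 23.5 FPKM in KO at 5 months and at 15.4, 17.7 and 17.7 FPKM in WT against 21.1, 30.95 and 27.03 FPKM in KO at 8 months, without overlap at the older age. Oas2 followed another order. It was at 2.26, 1.48 and 1.42 FPKM in WT against 4.28, 1.96 and 3.74 FPKM in KO at 5 months and at 1.97, 1.34 and 2.41 FPKM in WT against 4.64, 2.07 and 2.49 FPKM in KO at 8 months, with its highest values in F5 and E7.

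E7 and F5, the libraries with the highest neutrophil marker sums, were also the highest pair for Oas2, Oas3, Psmb8, Psmb9 and Tap1. This pair too was chosen after the values were seen. These are 5 of 36 genes against 9.63% of all tested genes, a share near the background, so this order was not particular to the list. Oas3 reached 3.06 FPKM in E7 and 2.80 FPKM in F5, and 0.574 to 1.65 FPKM in the other 10 libraries. With the mean log2 level of the neutrophil markers as a covariate the difference of Oas2 at 5 months turned to -0.21. The median of the 36 genes was 0.40 at 5 months and 0.44 at 8 months. At an unadjusted limma p under 0.05, 7 of 36 were higher in KO at 5 months (491 of all tested genes), 21 at 8 months (462) and 20 in the average (685). At 5 months that level, relative to the WT mean, was -0.95 to 0.56 in WT and 2.55 to 4.70 in KO. The covariate and the genotype can hardly be told apart there. Without E7 and F5 the medians of the 36 genes were 0.35 at 5 months and 0.50 at 8 months. Whether marrow cells carried part of the difference in Oas2 and the others of this order was not tested beyond these values.

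Tap1 carries peptides into the endoplasmic reticulum, and Psmb8 and Psmb9 are catalytic subunits of the immunoproteasome that cuts them. These 3 genes of class I antigen processing lie next to each other on chromosome 17 (Tap1 at chr17:34324501-34334170), at 7.68 to 7.69 Mb from Dusp1, and were the only ones of the 36 within 10 Mb of it. Stretches of the chromosome around a knocked-out gene can come from the other parental strain, and what part that had here cannot be told apart from the genotype. Tap1 was at 7.48, 6.49 and 8.51 FPKM in WT and 14.6, 8.81 and 10.4 FPKM in KO at 5 months, without overlap, and at 8.74, 8.45 and 12.7 FPKM in WT against 13.3, 11.9 and 11.5 FPKM in KO at 8 months, where F12 exceeded F6 and F27. Its log2 difference was 0.54 ± 0.19 and 0.30 ± 0.19. Psmb8 differed by 0.61 ± 0.23 and 0.27 ± 0.23, and Psmb9, whose start lies 226 bases from that of Tap1, by 0.74 ± 0.31 and 0.20 ± 0.31. Each of them was higher in KO at an unadjusted limma p under 0.05 at 5 months (8.23% of all tested genes) and none was at 8 months (2.21%), but the difference between the ages did not pass in any (limma interaction, adjusted p = 0.880, 0.876 and 0.895).

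The GTPases of the GBP and IRG families coat and break the vacuoles of intracellular microbes, and respond mainly to interferon-γ. All 7 on the list were higher in KO with an unadjusted limma p under 0.05 in the averaged contrast (7.74% of all tested genes). At 5 months 1 of 7 was (8.23%), a share near the background, and at 8 months 5 of 7 were (2.21%). The median log2 difference of the 7 in the average was 0.40. Outside the list, Gbp4, Gbp6 and Gbp8 differed on average by 0.10 ± 0.17, 0.28 ± 0.13 and 0.12 ± 0.16. Gbp9 and Irgm2 differed by 0.26 ± 0.12 and 0.21 ± 0.17. None of these relatives reached such a p in the average, while Gbp10 did (0.32 ± 0.14). Gbp2 was at 15.02, 10.3 and 13.9 FPKM in WT against 13.2, 14.3 and 19.3 FPKM in KO at 5 months, and at 13.2, 13.2 and 14.9 FPKM in WT against 17.2, 23.7 and 20.9 FPKM in KO at 8 months. Gbp3 was at 8.32, 7.54 and 11.1 FPKM in WT against 10.5, 9.24 and 14.8 FPKM in KO at 5 months and at 8.54, 9.82 and 10.5 FPKM in WT against 11.9, 14.1 and 13.5 FPKM in KO at 8 months. Both were mixed at the younger age and apart at the older age, by 0.55 ± 0.17 and 0.44 ± 0.18.

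Gbp5, which promotes inflammasome assembly, was at 3.93, 2.95 and 3.52 FPKM in WT against 4.95, 4.68 and 4.51 FPKM in KO at 5 months and at 3.77, 3.62 and 5.26 FPKM in WT against 4.65, 5.38 and 6.79 FPKM in KO at 8 months, apart at 5 months and overlapping at 8 months through F12. Igtp, which encodes the IRG protein Irgm3, was at 9.24, 9.09 and 14.3 FPKM in WT against 16.2, 15.3 and 12.5 FPKM in KO at 5 months and at 12.7, 9.76 and 14.5 FPKM in WT against 14.6, 18.9 and 20.1 FPKM in KO at 8 months, the reverse order of overlap. The averaged differences of Gbp5 and Igtp were 0.39 ± 0.11 and 0.48 ± 0.14. The other 3 GTPases on the list, Gbp7, Irgm1 and Iigp1, differed on average by 0.24 ± 0.10, 0.44 ± 0.16 and 0.67 ± 0.27. GBP genes lie in clusters of similar copies, and reads that fit several copies make the level of a single one uncertain.

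Xaf1, an antagonist of the inhibitor of apoptosis XIAP, had the largest difference of the 36 genes at 5 months and a pattern of its own. It was at 12.5, 5.27 and 6.09 FPKM in WT and 24.8, 22.2 and 30.8 FPKM in KO at 5 months, a log2 difference of 1.73 ± 0.33 or 3.26-fold in mean FPKM (limma adjusted p = 0.118). At 8 months it was at 15.9, 25.5 and 23.7 FPKM in WT and 27.9, 33.1 and 17.04 FPKM in KO, with F5 and F6 above the WT libraries, F27 inside their range and a difference of 0.23 ± 0.33. The low values were those of the 3 WT mice of 5 months, and the WT libraries of 8 months were higher by 1.46 ± 0.33, while the KO libraries of both ages differed by -0.03 ± 0.33. Its change of the genotype difference between ages was -1.496 ± 0.47 (limma unadjusted p = 0.00923), the only one of the 36 under 0.05 before adjustment, and adjusted over all genes it was 0.876. Array weights, which let libraries count by their quality, brought Xaf1 past the threshold at 5 months with a difference of 1.95. The WT libraries of 5 months were all coded E and all other libraries but E7 were coded F, so the letter, whose meaning was not stated, moved with this value except in E7.

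Ifi44, Ifi35 and Parp14 complete the list. Ifi44, a restriction factor of RNA viruses, differed by 0.37 ± 0.34 at 5 months and 0.76 ± 0.34 at 8 months, with its highest values in F19 and F5. Ifi35 differed by 0.11 ± 0.11 and 0.23 ± 0.11, and Parp14, a mono-ADP-ribosyltransferase, by 0.20 ± 0.15 and 0.28 ± 0.15. Differences of this size were close to their standard errors at 5 months.

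**Figure D4:**
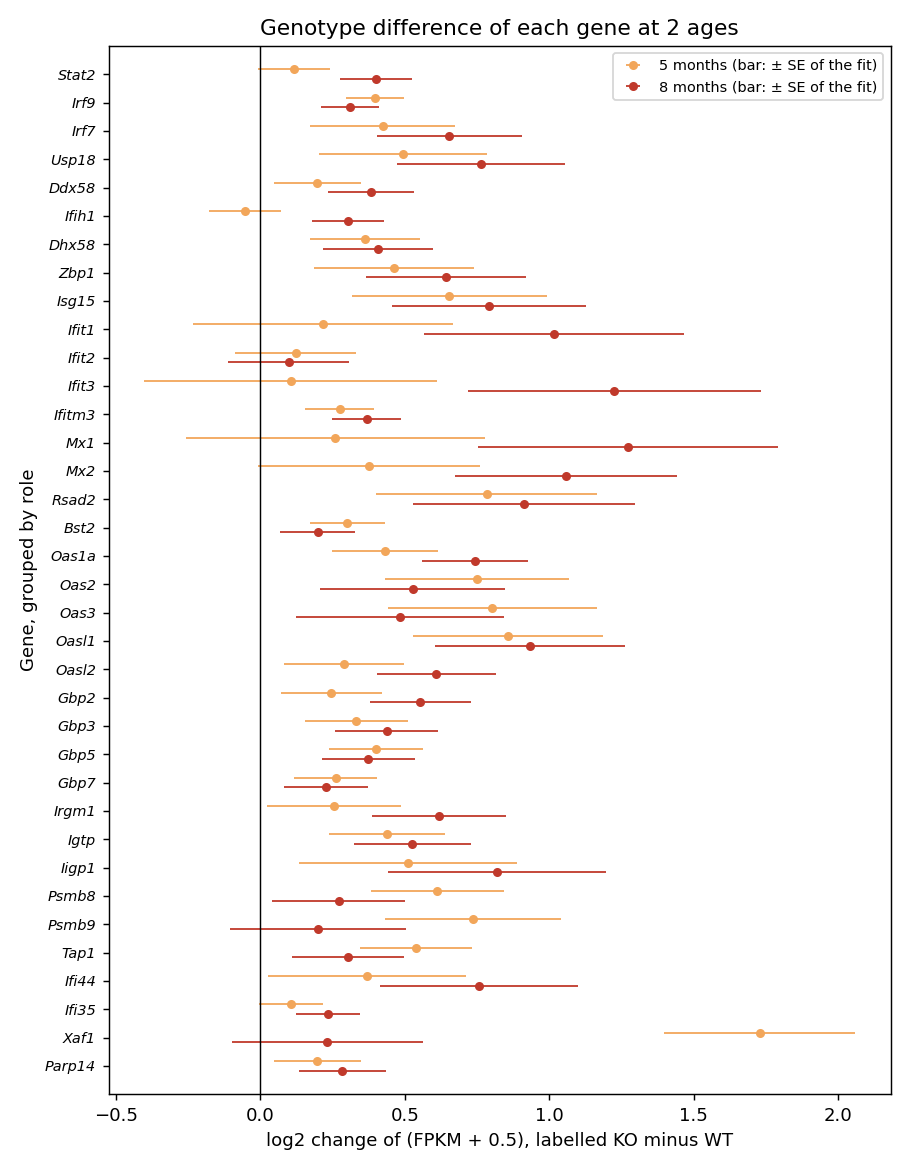
Difference in log2(FPKM + 0.5) between libraries labelled KO and WT for each of the 36 genes (rows, grouped by role) at 5 months (orange) and 8 months (red), with bars of ± 1 standard error of the limma fit and a line at 0. All points but that of Ifih1 at 5 months lie right of 0, and Xaf1 at 5 months lies farthest out at 1.73.

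Between the ages, the genotype difference was larger at 8 months in 25 of 36 genes (52.6% of all tested genes), by a median log2 value of 0.13 against 0.013 for all. limma called none of them (0.00614% of all), and at an unadjusted p under 0.05 none was higher (3.02% of all) and 1, Xaf1, was lower (1.65%), so a growing difference was not shown. The median of the change turned to -0.032 without E4 and to -0.010 without F18. The levels themselves were higher at 8 than at 5 months in 32 of 36 genes in WT (53.7% of all), by a median of 0.18. In KO this held for 32 of 36 as well (53.2% of all), by a median of 0.28. limma called none in either genotype, from 0.0123% of all genes called in WT and 0% in KO. In WT an unadjusted p under 0.05 was reached by 1 of 36, Xaf1, which was higher at 8 months (4.28% of all), and no gene was lower (3.55%). In KO it was reached by 8 of 36, all higher at 8 months (8.84% of all; 3.75% were lower): Usp18, Ifih1, Ifitm3, Mx1, Mx2, Oasl2, Gbp2 and Ifi35.

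The interferons themselves were near or at the floor. Of the 19 interferon genes on the list, 14 were listed at 0 in all 12 libraries, and none passed the filter on low levels. Ifnb1, the first type I interferon made by most cells, was listed at up to 0.163 FPKM and above 0 in 3 of 6 WT and 3 of 6 KO libraries. Ifng, the type II interferon, was listed at up to 0.324 FPKM. Without read numbers, such values do not show whether the RNA was absent.

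Of the 9 receptor and kinase genes, 3 had an unadjusted p under 0.05 in the averaged contrast, all higher in KO (7.74% of all tested genes), and limma called none. Ifnar1 and Ifnar2, the subunits of the type I receptor, differed on average by -0.01 ± 0.04 and 0.17 ± 0.07. Ifngr1, the ligand-binding subunit for interferon-γ, differed by 0.30 ± 0.10 and Ifnlr1, the receptor of type III interferons, by 0.33 ± 0.13. The median over the 9 genes was 0.081, below the 0.46 of the induced genes. At 5 months 3 of the 9 were higher in KO with such a p (8.23% of all tested genes) and at 8 months 0 were (2.21%). The medians were 0.13 and -0.021.

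Among 7 other STAT and IRF genes, transcription factors outside the 36, 4 had an unadjusted p under 0.05 in the average, all higher in KO (7.74% of all tested genes), and limma called none. The 4 were Irf4 (0.93 ± 0.24) and Irf5 (0.51 ± 0.19), Irf8 (0.67 ± 0.28) and Irf1 (0.19 ± 0.07). Irf4, Irf5 and Irf8, which serve mainly in blood cells, had their highest value in E7, and Irf5 and Irf8 their next highest in F5. At 5 months 4 of the 7 genes were higher in KO with such a p (8.23% of all tested genes) and at 8 months 0 were (2.21%). The medians were 0.29 and 0.097.

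The brakes and sensing genes had smaller medians. Of 9 inhibitors of the pathway 4 had an unadjusted p under 0.05 in the average, higher in KO (7.74% of all tested genes), with a median of 0.22. Socs1, which blocks JAK kinases, differed by 0.26 ± 0.11 and Socs3 by 0.30 ± 0.11, while among the phosphatases Ptpn6, found mainly in blood cells, differed by 0.81 ± 0.29 and Ptpn1 by 0.22 ± 0.08. Of 23 genes that sense nucleic acid or carry its signal 5 did (7.74%), with a median of 0.16. The smallest p values were those of the DNA sensor gene Ifi204 (0.47 ± 0.15), Samhd1 (0.40 ± 0.15) and Trex1 (0.16 ± 0.06), whose products limit nucleotides and break down DNA, and Ticam1 (0.16 ± 0.07), the adaptor of TLR3. At 5 months 3 of the 9 inhibitors and 6 of the 23 sensing genes were higher in KO with an unadjusted p under 0.05 (8.23% of all tested genes). At 8 months 0 and 1 were (2.21%).

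A further 61 tested genes known to respond to interferon, none of them among the 36, had a median averaged difference of 0.22, with 56 above 0 (45.6% of all tested genes) and 30 with an unadjusted p under 0.05, all higher in KO (7.74% of all). limma called none of these either. The smallest p values were those of Tap2 (0.23 ± 0.05), Ifitm2 (0.21 ± 0.05), Psme1 (0.32 ± 0.08) and Trim30a (0.60 ± 0.16), which carry peptides, block viral entry, activate the proteasome and restrain Toll-like receptor signals. The distance of these genes from Dusp1 was not computed. Whether the limit given for Tap1, Psmb8 and Psmb9 also holds for Tap2 or others of them was not tested. The ISRE core stood before 18 of these 61 genes (29.5%).

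Markers of the cells that could bring interferon-induced RNA were read beside the 36 genes. Besides the neutrophil sums above, the 25 macrophage markers in the table summed to 654 to 1207 FPKM in WT and 1007 to 2296 FPKM in KO at 5 months, and to 715 to 1091 FPKM in WT and 704 to 1888 FPKM in KO at 8 months. The 23 B cell markers summed to 47.3 to 57.8 FPKM in WT and 77.6 to 246 FPKM in KO at 5 months, and to 53.8 to 141 FPKM and 60.7 to 99.7 FPKM at 8 months. The 17 T and NK cell markers summed to 11.7 to 14.9 FPKM in WT and 20.6 to 54.3 FPKM in KO at 5 months, without overlap, and to 15.1 to 30.4 FPKM and 17.3 to 46.1 FPKM at 8 months. The 8 red cell markers were apart at 5 months too, at 696 to 1975 FPKM in WT and 1978 to 3783 FPKM in KO, and mixed at 8 months, at 1168 to 3708 FPKM and 1209 to 3679 FPKM. Brain markers moved the other way, with none of 17 tested genes above 0 at 5 months and a median log2 difference of -0.56, and 2 of 17 above 0 at 8 months with a median of -0.10. The 10 markers of plasmacytoid dendritic cells, the main makers of type I interferon in blood, summed to 83.1 to 117 FPKM in WT and 110 to 122 FPKM in KO at 5 months, and to 78.6 to 106 FPKM and 82.0 to 95.8 FPKM at 8 months. The 12 endothelial markers summed to 195 to 268 FPKM over all libraries, with groups that overlapped at both ages. At 8 months F6 and F27 thus joined the highest levels of effector genes with neutrophil and B cell sums inside the WT range and macrophage sums of 901 and 704 FPKM. No marker of these lists was at 0 in all libraries. The part of any cell type in the differences was not tested further.

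**Figure D5:**
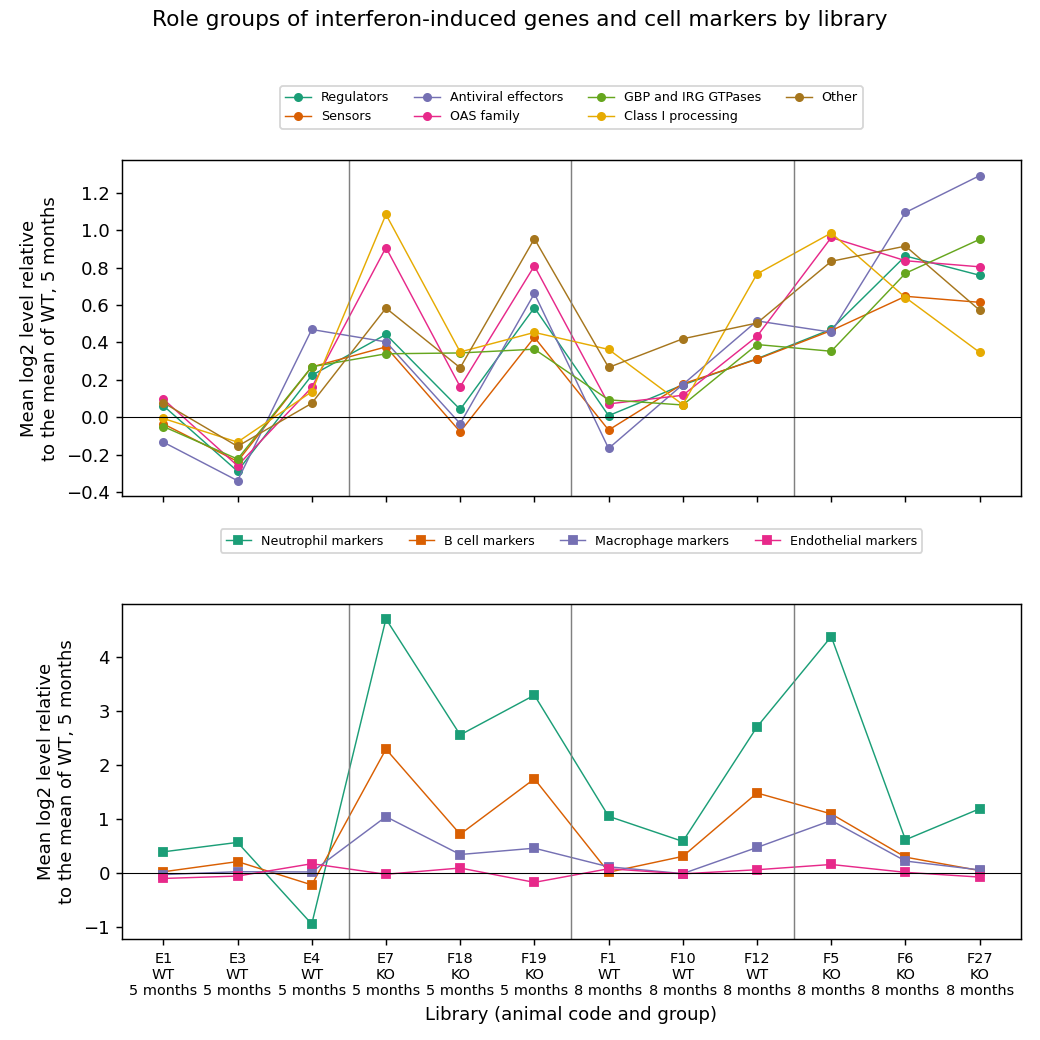
Mean log2(FPKM + 0.5) of each role group of the 36 genes (upper panel) and of 4 lists of cell markers (lower panel) in each library (x axis, animal code and group), relative to the mean of the WT libraries of 5 months. In F6 and F27 the antiviral effectors reach 1.09 and 1.29 while the neutrophil markers stay at 0.61 and 1.19, whereas in E7 and F5 the class I processing genes reach 1.08 and 0.98 and the neutrophil markers 4.70 and 4.38.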

How the data were processed

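FPKM per gene and library were deposited by the authors, who made stranded polyA libraries from cochlear RNA, used TopHat2 2.0.10, with Bowtie 1.0.0 and SAMtools 0.1.19, to align single-end reads to mm9, and took levels from Cufflinks 2.2.1. In many deposited FPKM the decimal point had been lost. It was restored here by trying every place of each of the 3 values of a group and taking the set with the same mean as the pooled level that Cuffdiff gave (relative tolerance 1e-05). This changed 55.31% of values, and 7 of 23951 genes without a single answer were left out, none of them among the 36. The group FPKM, another kind of deposited value, served for this step only.

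Values were tested as log2(FPKM + 0.5) over genes whose mean reached 0.5 FPKM, in 1 limma fit (limma 3.58.1, R 4.3.3) of 4 groups with a variance trend, with 6 contrasts and Benjamini-Hochberg adjustment at 0.05. A difference on this scale understates that of low genes. FPKM hold no read numbers, so depth is unknown. By the most common ratio to E1 among genes of very low level, 1 read was worth 0.850 to 1.05 times as much FPKM in each library as in E1. Ratios far from equal had been left out beforehand, so a large difference in depth could not have been seen this way. The procedure was tested on simulated data. Nothing says that animals of a group were independent litters. The limma p measures only the spread between libraries of a group, pooled over the 4 groups and drawn toward the trend over all genes. The standard error of a gene is therefore the same at both ages.

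The 36 genes, the role groups and the other lists were chosen with earlier results of these data known. Values in every library are given for 20 genes, those with the smallest unadjusted p in the averaged contrast among genes under 0.05 or without overlap at an age (31 qualified), with Isg15, Stat2, Irf9, Irf7 and Usp18 in any case. Other genes singled out are named as such. For the pathway lists up to 4 genes with the smallest p under 0.05 in the averaged contrast are named, with Ifnb1, Ifng, Ifnar1 and Ifnar2 in any case, and 1 gene is not reported here. Gene starts came from the deposited gene models and sequence from NCBIM37, in which 99.79% of 29033 start codons of those models read ATG. The authors' own comparisons (fold changes, p and q values), their enrichment scores and their correlations between libraries were not used. Alternatives changed 1 choice each (25 settings), and 1 of them, leaving out E7 and F5 together, was chosen after seeing the data, as were the pairs of highest libraries and the split by Xist RNA. Python 3.11.15 with NumPy 2.4.6, pandas 2.3.3 and Matplotlib 3.10.9 was used for tables and figures.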

Additional observations from a re-analysis of the deposited data

How the results depend on the processing

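The direction of the list and the absence of single calls held under nearly every alternative. The median log2 difference of the 36 genes stayed above 0 at 5 months, at 8 months and in the average under every one of the 25 alternatives that could be run for it, from 0.23 without E3 to 0.53 without E4 at 5 months and from 0.42 without F1 or with array weights to 0.63 without F12 at 8 months. Counts moved more than medians. Genes past limma's adjusted threshold were 1 in place of 0 at 5 months with array weights (Xaf1) and 1 in place of 0 in the averaged contrast without F18 (Oas1a), the range over single libraries left out being 0 to 1. Genes without overlap, 10 at 5 months, were 10 to 23 when 1 library was left out (23 without F18, 21 without E4). The 16 at 8 months were 16 to 30 (30 without F12, 26 without F5). Leaving out a library can only keep or raise such a count, for any gene. The share of all tested genes was computed for these settings without E4 only, at 16.4%. Stat2 at 5 months ran from -0.00485 without E3 to 0.22 without F18, and Oas2 at 5 months to -0.21 with the neutrophil level as a covariate. The cause was not tested in any of these. The change of the median between ages was 0.13 and turned to -0.032 without E4 and -0.010 without F18. Genes with an unadjusted p under 0.05 at 5 months, 12 of 36, fell to 2 without E3 or without E7 and to 3 without E7 and F5 together. Of all tested genes, those higher in KO went from 1339 to 906, 638 and 1047 in that order. At 8 months 22 of the 36 had such a p, and 6 without F1 or without F6, 9 without F27 and 14 without F10. With the Xist level as a covariate 12 had. Of all tested genes, 359 became 259, 215, 427, 387 and 303 in that order. Of the main values and counts 306 stayed the same and 6 moved, by a wide rule. A median counted as the same when it shifted by less than 0.22, the SD between replicates of the mean log2 level of the genes. A count of 0 that stayed 0 also counted as the same. So did the median change between ages that turned below 0. Counts by unadjusted p were not in this tally. No paired analysis was possible because the labels number no replicates. Depth is unknown, so what it limits for low genes such as the interferons could not be computed.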
